A study of Mus musculus with 26 samples.

Results

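The data described here are the levels of 10 transcription factor genes that pattern the progenitors of the ventral spinal cord, in motor neuron spheroids made from mouse embryonic stem cells. The genes were taken by symbol from a table of 56941 gene entries: Olig1, Olig2, Nkx2-2, Nkx6-1, Nkx6-2, Pax6, Irx3, Foxa2, Dbx1 and Neurog2. All 10 were found, 1 entry each. None of them passed an adjusted p under 0.05 in any comparison of treatment groups. Olig1, Olig2 and Nkx2-2 were spread widely between actuated libraries, in which the same 2 replicates were high for all 3. Pax6 was nearly level on the deeply sequenced arrays in depth-normalised counts, but not in the deposited length-corrected values. Its spread in counts there was smaller than counting error, so it cannot be read as constancy.

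In the embryonic spinal cord, Sonic hedgehog from the notochord and floor plate is graded from ventral to dorsal, and progenitors read it through sets of homeodomain and basic helix-loop-helix (bHLH) factors that repress each other. Pax6, Irx3 and Dbx1 are held back by the signal, while Nkx6-1, Olig2, Nkx2-2 and Foxa2 are induced by it at successively higher levels. Olig2 marks the domain that yields motor neurons and later oligodendrocyte precursors, Nkx2-2 the domain ventral to it and Foxa2 the floor plate. The spheroids were differentiated with retinoic acid and purmorphamine, an agonist of the hedgehog transducer Smoothened, so these factors are the usual markers of the stage before motor neurons.

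The cells were HBG3, an embryonic stem cell line with GFP under the promoter of the motor neuron gene HB9 (Mnx1), labelled with the genotype "heterozygous blastocysts". All groups shared this line, ciliary and glial cell line-derived neurotrophic factors from day 5, and seeding on fibrin at about day 8. Spheroids on a magnetic silicone matrix were either moved at 4 Hz for 30 min a day (actuated, n = 4) or left unmoved (static, n = 4). The biochemical groups carry the labels high intensity (n = 6), low intensity (n = 6) and control (n = 6). The series text tells of media from stimulated and unstimulated optogenetic muscle under other sample names, which the labels do not tie to an intensity. The labels do not say when spheroids were harvested or whether samples of a group came from separate differentiations. The p-values therefore measure the spread between these samples, which may be technical, and every library is 1 line of cells.

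Library totals ran up to 13162635 counts, and the shallowest library had counts on only 258 genes. In 21 of the 26 libraries protein-coding genes had over 1000000 counts (5 control, 5 low-intensity, 4 high-intensity, 4 actuated and 3 static), and these are called the deeper libraries. The other 5 are static replicate 3, both replicates 4 and 5 at high intensity, the shallowest library (replicate 6 at low intensity), and control replicate 4, in which rRNA genes took 75.7% of the counts. Deeper array libraries had at least 7269276 counts and deeper biochemical libraries at most 3971348. Levels are given as CPM, counts per 1000000 on library sizes scaled by the trimmed mean of M values. Where genes are compared with each other they are given as TPM, the deposited measure that corrects for transcript length. Motor neuron genes were present in all 21: the vesicular acetylcholine transporter Slc18a3 was at 45.6 to 90.3 CPM and Mnx1 itself at 2.66 to 20.1 CPM. In bulk RNA, fewer cells of a type and less RNA per cell cannot be told apart.

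The RefSeq promoter table (GRCm38.p6) held windows for 9 of the 10 genes, Olig1 having no entry in it. The 250 bases before the start are printed for 4 of them: Olig2, Nkx2-2, Nkx6-2 and Pax6. Levels of Olig2 and Nkx2-2 moved together on the arrays, and Nkx6-2 followed Olig1. Pax6, like Irx3, did not follow Olig1, Olig2 or Nkx2-2 over the deeper libraries. Capitals mark matches, on either strand, to the E-box core CANNTG that bHLH factors bind and to the TATA box TATAAA. The Gli-binding sequence GACCACCCA was searched as well and had no match.
Olig2, chr16:91225300-91225549, plus strand: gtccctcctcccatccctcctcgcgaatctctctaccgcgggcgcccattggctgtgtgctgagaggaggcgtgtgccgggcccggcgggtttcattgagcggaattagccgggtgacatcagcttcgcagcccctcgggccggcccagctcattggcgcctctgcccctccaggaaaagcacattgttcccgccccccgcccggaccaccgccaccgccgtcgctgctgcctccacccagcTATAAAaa
Nkx2-2, chr2:147186403-147186652, minus strand: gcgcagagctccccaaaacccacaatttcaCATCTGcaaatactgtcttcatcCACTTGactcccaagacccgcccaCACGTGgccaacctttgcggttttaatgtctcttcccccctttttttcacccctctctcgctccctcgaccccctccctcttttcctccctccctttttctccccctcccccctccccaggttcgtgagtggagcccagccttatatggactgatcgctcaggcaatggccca
Nkx6-2, chr7:139582798-139583047, minus strand: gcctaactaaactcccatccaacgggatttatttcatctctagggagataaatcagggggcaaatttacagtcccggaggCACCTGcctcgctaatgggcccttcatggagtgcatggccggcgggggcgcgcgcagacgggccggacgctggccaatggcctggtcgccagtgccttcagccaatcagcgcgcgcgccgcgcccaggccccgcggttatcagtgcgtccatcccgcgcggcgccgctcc
Pax6, chr2:105668646-105668895, plus strand: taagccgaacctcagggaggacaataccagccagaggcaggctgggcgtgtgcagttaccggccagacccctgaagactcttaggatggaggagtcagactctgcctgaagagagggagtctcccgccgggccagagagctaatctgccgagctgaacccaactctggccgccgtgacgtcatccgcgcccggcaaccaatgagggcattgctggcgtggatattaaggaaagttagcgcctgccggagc
The Nkx2-2 window held 3 E-box cores, the Nkx6-2 window 1, and the Olig2 window 1 TATA box. The first of the Pax6 windows, the one shown, held none of the 3 motifs. Of 32851 windows of this length in the table, 66.2% held CANNTG, 12.4% TATAAA and 0.225% GACCACCCA. Among the 12 windows of the 9 genes, 4 held CANNTG, 3 TATAAA and 0 GACCACCCA. Olig1 and Olig2 lie side by side on chromosome 16, with 0 protein-coding genes between them in that assembly.

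Per transcript length, Pax6 was the most abundant of the factors in the deeper libraries, at 26.9 ± 10.4 TPM (SD, n = 21). Olig1 followed at 10.2 ± 5.55 TPM and Olig2 at 7.02 ± 3.54 TPM. Nkx6-2 (3.47 ± 2.07 TPM), Nkx2-2 (3.05 ± 2.21 TPM) and Nkx6-1 (3.01 ± 1.23 TPM) formed a middle rank whose means differed by less than their SD. Irx3 was at 2.19 ± 0.897 TPM. Neurog2 (0.596 ± 0.567 TPM), Foxa2 (0.53 ± 0.734 TPM) and Dbx1 (0.0502 ± 0.109 TPM) were near the detection limit. Pax6 exceeded Olig1 in 20 of 21 libraries and Olig1 exceeded Olig2 in 18, whereas Nkx6-2 exceeded Nkx2-2 in only 12 and Nkx2-2 exceeded Nkx6-1 in 10. Neurog2 and Foxa2 were ordered no better, with Neurog2 the higher in 10 of 21. The scale itself was not steady for one gene across libraries: the ratio of TPM to CPM of Pax6 lay between 0.252 and 1.40. TPM are therefore used here for the order of genes and CPM for differences between groups.

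**Figure D1:**
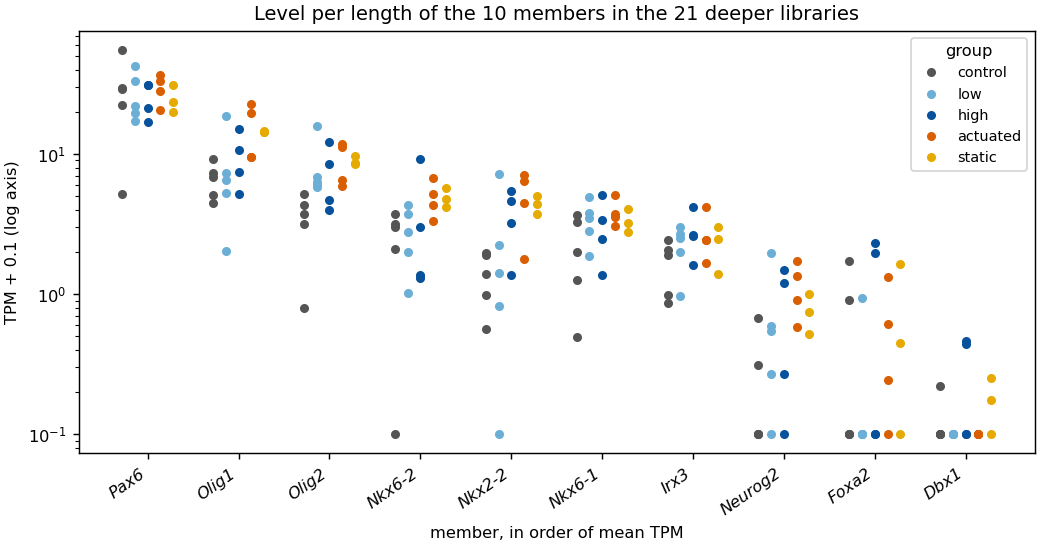
Level per transcript length (TPM + 0.1, log axis) of the 10 genes in each of the 21 deeper libraries, coloured by group and ordered by mean TPM. Pax6 stands highest, the Olig pair next, and Neurog2, Foxa2 and Dbx1 reach 0 TPM (drawn at 0.1) in several libraries.

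Olig1 and Olig2 are bHLH factors of the motor neuron and oligodendrocyte lineage. Olig1 was at 14.9, 15.3, 51.0 and 38.6 CPM in actuated replicates 1 to 4 and at 25.3, 33.3, 32.6 and 29.4 CPM in static replicates 1 to 4. The 4 static spheroid libraries lay inside the range of the actuated ones, which fell into a low and a high pair. In the deeper controls Olig1 was at 21.2, 14.4, 24.3, 16.3 and 20.01 CPM (replicates 1, 2, 3, 5 and 6), below every static library. In deeper high-intensity libraries it was at 18.3, 16.0, 13.5 and 22.8 CPM. At low intensity 1 library, replicate 1, stood at 32.9 CPM, while replicates 2 to 5 were at 11.7, 10.7, 9.26 and 4.18 CPM. Apart from that replicate, all low-intensity libraries were below all deeper controls. The share of all genes that separate groups in these ways was not counted.

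Olig2 showed the same split on the actuated arrays, with 12.2, 11.3, 31.8 and 26.2 CPM, against 17.7, 23.4, 24.0 and 23.6 CPM on static arrays. Its deeper controls held 21.2, 2.73, 9.78, 10.5 and 16.7 CPM. Low-intensity replicate 1 was again the highest of its group, at 32.9 CPM against 12.1, 13.4, 12.1 and 15.2 CPM in replicates 2 to 5. The deeper high-intensity libraries held 17.2, 10.03, 14.5 and 21.6 CPM, within the range of the controls. The TPM ratio of Olig1 to Olig2 was 1.46 to 1.91 on actuated and 1.48 to 1.71 on static arrays. It was 1.11 to 1.89 at high intensity, 0.327 to 1.19 at low intensity and 1.19 to 6.27 in controls, so the range was wider in the last 2 groups. The 6.27 was control replicate 2, with 7 counts of Olig2. The 0.327 was low-intensity replicate 5, with 11 counts of Olig1. All biochemical groups, high intensity included, were shallower than the arrays, and the reason for the wider ranges was not tested.

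Nkx2-2, a homeodomain factor of the domain ventral to that of Olig2 and later of maturing oligodendrocytes, was at 2.63, 2.85, 11.7 and 8.11 CPM on actuated arrays. The static arrays held 5.50, 4.64, 10.3 and 7.34 CPM. Replicates 3 and 4 of the actuated group were thus the high ones for all of Olig1, Olig2 and Nkx2-2. In the biochemical groups Nkx2-2 was low, at 1.93 to 4.92 CPM in the deeper controls, 0 to 4.03 CPM at low intensity and 3.27 to 5.01 CPM at high intensity. These levels rest on few counts: 40 in the 5 deeper controls together, 26 in the 5 low-intensity and 50 in the 4 high-intensity libraries.

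Nkx6-1 and Nkx6-2 are related homeodomain repressors expressed across the ventral domains. Nkx6-1 was at 8.56 to 12.3 CPM on actuated and 8.31 to 13.6 CPM on deeper static arrays. In the deeper controls it covered 1.95 to 22.8 CPM, a wider range than in any other group, and it lay at 5.70 to 12.7 CPM at low and 4.10 to 11.4 CPM at high intensity. Nkx6-2 was at 4.68, 4.02, 9.29 and 5.08 CPM on actuated arrays and at 6.27, 8.26 and 6.37 CPM on deeper static arrays. Controls 1, 2, 3, 5 and 6 held 7.40, 0, 6.81, 4.22 and 6.23 CPM of Nkx6-2, low intensity 1.42 to 5.58 CPM and deeper high intensity 2.82, 2.28, 1.87 and 9.55 CPM. Control replicate 4, the rRNA-rich library, was listed at 53.1 CPM, from 18 counts, and no other library passed 10.3 CPM. Nkx6-2 overlaps the coding gene Inpp5a on the other strand (GENCODE vM21), which had 3783 counts in the deeper libraries against 536 of Nkx6-2. The strand setting of the counting is unknown here, so the values of Nkx6-2 are uncertain.

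Pax6, a paired and homeodomain factor of progenitors outside the most ventral domains, had the smallest relative spread of the 7 fitted genes in CPM over the deeper libraries. The 7 deeper array libraries held 33.4, 32.0, 33.2 and 33.3 CPM (actuated) and 32.0, 31.2 and 31.9 CPM (static). They rest on 228 to 370 counts each. Their coefficients of variation, 1.88% (actuated) and 1.36% (static), are smaller than counting error at such counts. The closeness therefore cannot be read as constancy of Pax6. Low-intensity replicates 1 to 5 were at 39.1, 30.4, 34.0, 32.0 and 33.4 CPM and the deeper high-intensity libraries at 31.3, 35.1, 32.7 and 28.7 CPM. The deeper controls were the exception, at 20.3, 28.5, 54.9, 33.7 and 40.0 CPM. Over all 21 the mean was 33.4 ± 6.27 CPM, a coefficient of variation of 18.8%, against 44.8% for Olig2, 52.3% for Olig1 and 65.1% for Nkx2-2. This held on the CPM scale only. In TPM, Pax6 ran from 20.6 to 36.2 on actuated and from 19.9 to 31.0 on deeper static arrays, where Olig1 lay between 14.2 and 14.5 TPM. On actuated arrays Olig1 had 9.37, 9.37, 22.4 and 19.5 TPM, so its low and high pairs were seen on both scales. The antisense gene Pax6os1 had 68 counts in the same libraries against 3110 of Pax6. The shallow static replicate 3 stood apart at 77.2 CPM, from 45 counts.

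Irx3, an Iroquois repressor that borders the Olig2 domain dorsally, was at 4.65 to 8.67 CPM on actuated and 3.46 to 8.77 CPM on deeper static arrays. It lay at 2.64 to 10.3 CPM in the deeper controls and 2.28 to 5.83 CPM at low intensity. The deeper high-intensity libraries held 3.38 to 14 CPM, the top value, in replicate 3, being the highest of all deeper libraries. All these ranges overlapped.

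Foxa2, Dbx1 and Neurog2 did not pass the filter on low counts. Foxa2, the floor plate factor, had counts in 10 of 21 deeper libraries, with 18 of the 24 actuated counts in replicate 2 and 13 of the 17 high-intensity counts in replicate 1. Dbx1, a factor of interneuron progenitors, had 0 counts among 34112508 in the actuated and 0 among 13685469 in the low-intensity libraries. A limit of 3 counts over the group allows up to 0.0879 CPM and 0.219 CPM there. Over all libraries of the other groups it had 6 counts on static arrays, 6 at high intensity and 1 in controls. Neurog2, the proneural factor that drives progenitors out of division, had counts in each of the 4 actuated libraries (1.13 to 3.30 CPM) and of the 3 deeper static ones (0.768 to 1.94 CPM). In the deeper controls 3 of 5 libraries had none, and 2 had 0.527 and 1.64 CPM. Pooled over the group, Neurog2 had 1.76 CPM on actuated arrays (60 counts), 1.30 on deeper static arrays (38), 1.17 at low intensity (16), 1.21 at deeper high intensity (15) and 0.377 in deeper controls (6). In an edgeR fit with no low-count filter, which includes them, none of the 3 was called in any comparison.

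**Figure D2:**
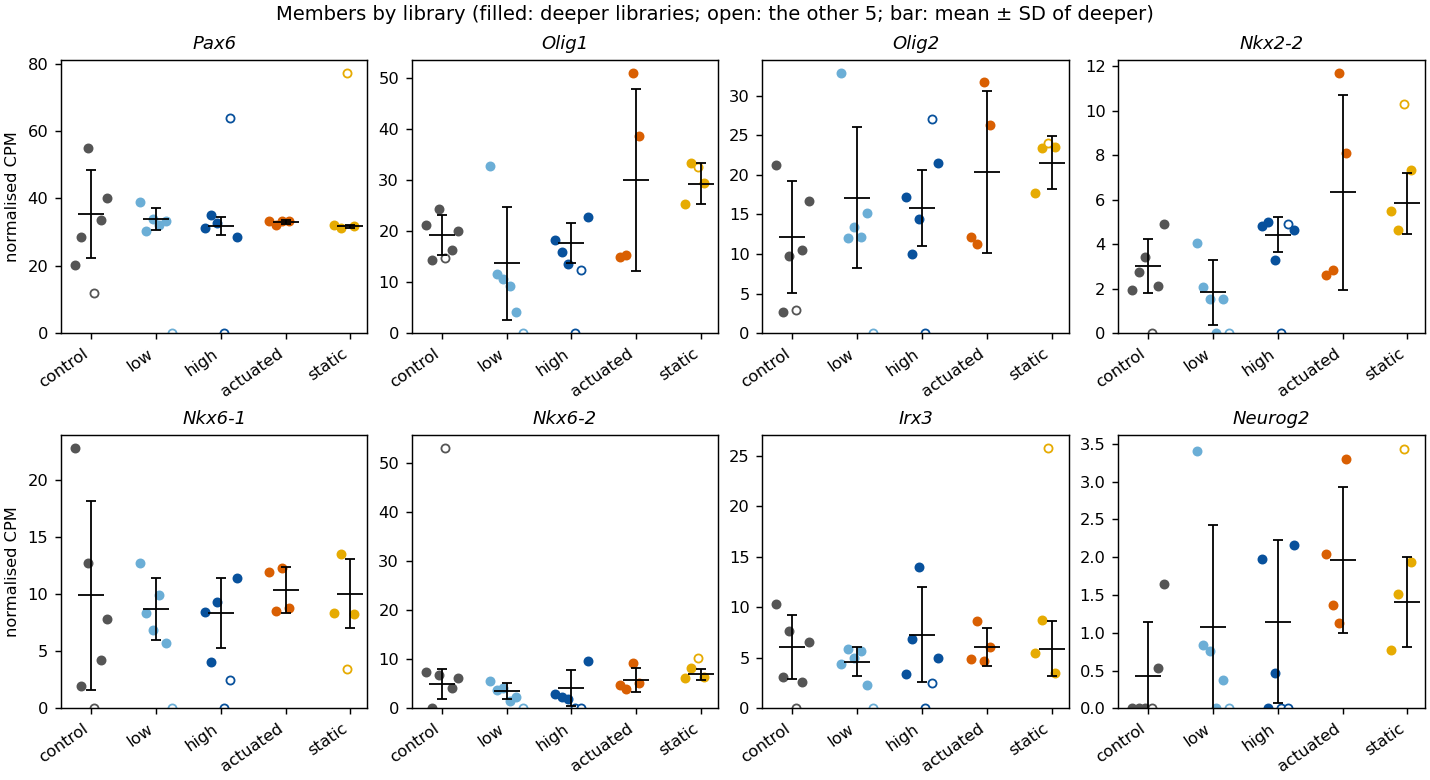
Normalised CPM of 8 of the genes in each library, by group. Filled points are the 21 deeper libraries, open points the other 5, and bars the mean ± SD of the deeper ones. Pax6 on arrays forms a band near 32 CPM, narrower than counting error, apart from the open static point at 77.2 CPM. The Olig1, Olig2 and Nkx2-2 points of the actuated group split into a low and a high pair.

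Actuated and static arrays were compared to ask what movement of the substrate changes. None of the 7 fitted genes was called (an adjusted p below 0.05 by edgeR's quasi-likelihood test, each being 1), where 0% of all 14907 fitted genes were called and 575 had an unadjusted p under 0.05. None of the 7 had such a p, and DESeq2 and limma voom called none of them in this or any later comparison. The log2 fold changes lay between -0.70 (Irx3, SE 0.71) and 0.23 (Nkx6-1, SE 0.63), with a median of -0.11 against -0.018 over all genes. In the deeper libraries (0% called, 56 of 14730 with an unadjusted p under 0.05) they lay between -0.27 (Nkx6-2, SE 0.68) and 0.12 (Nkx2-2, SE 0.62). For Pax6 the deeper libraries gave a ratio of 1.04 with a 95% interval of 0.766 to 1.42. For Olig1 the ratio was 1.02 and the interval 0.551 to 1.89, and for Nkx2-2 it was 1.08 with 0.445 to 2.64, so changes of nearly that size were not detectable here.

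Next, spheroids labelled high intensity were set against the controls. None of the 7 genes was called, where 0.0402% of all fitted genes were, and 1 of the 7 had an unadjusted p under 0.05, against 1049 of 14907 genes. That gene was Nkx6-2, at -1.65 on the log2 scale (SE 0.77, edgeR unadjusted p 0.0389 and adjusted p 0.680). Its adjusted p over the alternatives was 0.286 to 1. Without control replicate 4 alone it was -0.54, and in the deeper libraries, which leave out that library and 4 others, it was -0.24 (SE 0.65). There 0.462% of genes were called and the 7 genes lay between -0.27 (Nkx6-1) and 0.54 (Nkx2-2, SE 0.60), with 0 at an unadjusted p under 0.05. The median of the 7 was -0.12 against 0.0033 over all genes.

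Low-intensity medium gave a similar reading against the same controls. None of the 7 genes was called (0.0268% of all fitted genes), and Nkx6-2 alone had an unadjusted p under 0.05, with a log2 fold change of -1.63 (SE 0.78, unadjusted p 0.0448, adjusted p 0.930, edgeR). Without control replicate 4 alone it was -0.51. In the deeper libraries (0.597% of genes called) it was -0.48 (SE 0.62), and none of the 7 had an unadjusted p under 0.05. Olig1 was at -0.45 (SE 0.40) and Olig2 at 0.49 (SE 0.40) in the deeper libraries. The Olig1 value turned on low-intensity replicate 1: without it the log2 fold change of the deeper libraries was -1.11, with an edgeR adjusted p of 0.200, the smallest among all 2136 tests of these genes over 60 settings and 5 comparisons, and its adjusted p reached 1 in other settings. Both intensity comparisons share the control libraries.

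High and low intensity were also compared directly. None of the 7 genes was called, where 0% of all genes were and 434 of 14907 had an unadjusted p under 0.05. Nkx2-2 had the largest difference, a log2 fold change of 1.08 (SE 0.73) in all libraries and 1.17 (SE 0.61, unadjusted p 0.0683, adjusted p 0.683, edgeR) in the deeper ones, where 0% of genes were called. Its adjusted p over the alternatives was 0.566 to 1. The deeper high-intensity libraries held 4.79, 5.01, 3.27 and 4.62 CPM of Nkx2-2, and the low-intensity ones 4.03, 2.08, 1.53, 0 and 1.52 CPM. The groups overlapped through low-intensity replicate 1. The other 6 genes lay between -0.13 (Olig2) and 0.63 (Irx3, SE 0.50) in the deeper libraries.

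Static arrays were also compared with controls, a contrast between the arms of the study with no movement in either group. None of the 7 genes was called, with 0.0134% of all genes called in all libraries and 0.713% in the deeper ones. Olig2 had a static to control ratio of 1.92 in all libraries (95% interval 0.966 to 3.82, unadjusted p 0.0623, adjusted p 0.991, edgeR) and 1.73 in the deeper ones (0.93 to 3.22, unadjusted p 0.0811). Nkx2-2 had a log2 fold change of 1.27 (SE 0.73) and, in the deeper libraries, 0.92 (SE 0.61), and Olig1 0.67 (SE 0.45) and 0.59 (SE 0.42). The static and control libraries did not overlap for Olig1, overlapped for Olig2 through control replicate 1 and static replicate 1, and overlapped for Nkx2-2. The share of all genes whose static and control libraries do not overlap was not counted, so Olig1 cannot be called unusual by it. In the deeper libraries 12.56% of all genes had an unadjusted p under 0.05 (edgeR) in this comparison. Adjusted p over the alternatives was 0.279 to 1 for Olig2, 0.431 to 1 for Nkx2-2 and 0.503 to 1 for Olig1. Pax6 had a ratio of 0.887 (0.656 to 1.20) in the deeper libraries. The array, the arm of the study and the sequencing depth differ between these groups together and cannot be told apart.

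**Figure D3:**
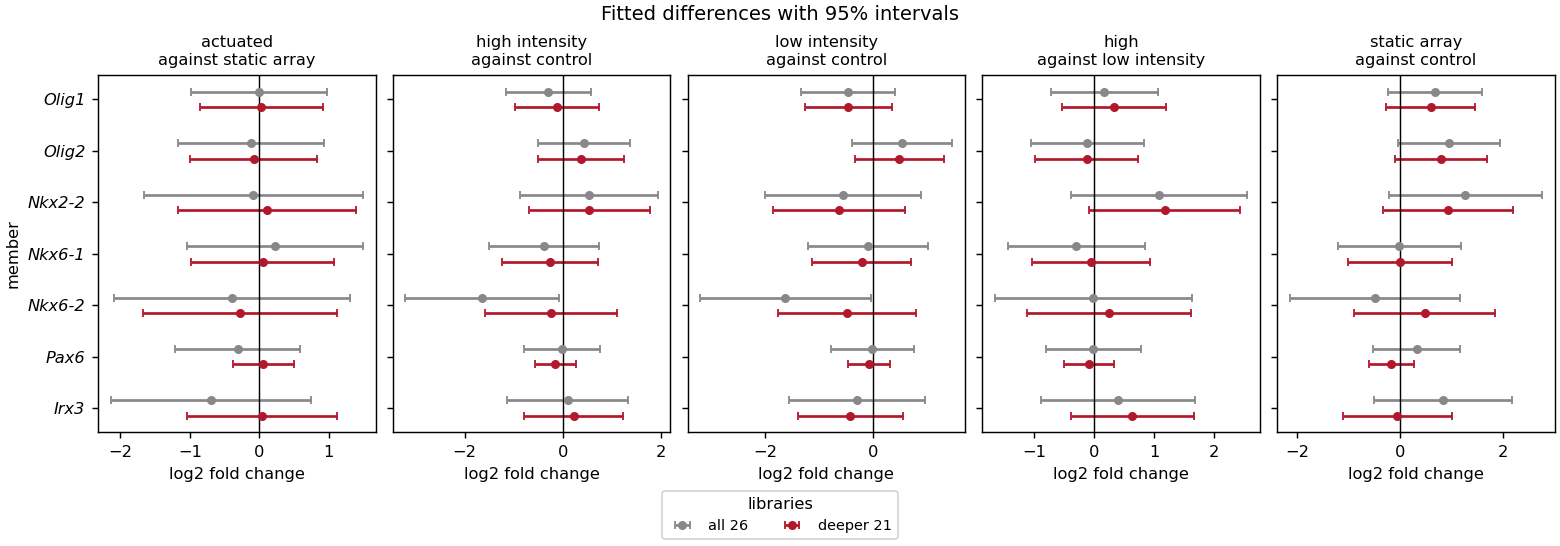
Log2 fold change with its 95% interval for the 7 fitted genes in the 5 comparisons (edgeR), for all 26 libraries (grey) and the 21 deeper ones (red). All intervals of the deeper libraries include 0. The grey Nkx6-2 intervals of both intensity groups against control, centred at -1.65 and -1.63, do not.

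In CPM over the 21 deeper libraries, Olig1 varied together with Nkx2-2 (Spearman rho 0.80), Nkx6-2 (0.79) and Olig2 (0.68). For Olig1 and Olig2 the coefficient was 0.93 within the 7 array libraries and 0.36 within the 14 biochemical ones. For Olig1 and Nkx2-2 it was 0.89 and 0.64. Pax6 followed none of them, with rho of -0.010 to Olig1 and -0.14 to Olig2, and Irx3 had 0.097 to Olig1. On the 7 array libraries the spread of Pax6 was smaller than counting error, so its ranks there cannot show whether it follows another gene. Within the 14 biochemical libraries Pax6 had 0.20 to Olig1, -0.13 to Olig2 and 0.33 to Nkx2-2. These are descriptions over libraries that share groups and differ in depth.

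The oligodendrocyte lineage genes moved with Olig1, Olig2 and Nkx2-2, and also with Nkx6-2. The summed CPM of 10 such genes was 277, 198, 824 and 530 on actuated arrays 1 to 4, so replicates 3 and 4 were again high, and 365, 567 and 744 on the deeper static arrays. Low-intensity replicate 1 held 529 CPM against 125 to 221 in replicates 2 to 5, controls 160 to 247 and deeper high intensity 204 to 299. The rank correlation with this sum was 0.75 for Olig1, 0.80 for Olig2, 0.68 for Nkx2-2 and -0.19 for Pax6. Within the 7 array libraries Olig1, Olig2 and Nkx2-2 had 0.82, 0.89 and 0.79, and within the 14 biochemical ones 0.51, 0.64 and 0.42. Nkx6-2 had 0.62 over all 21, 0.93 within the arrays and 0.45 within the biochemical libraries. All 10 genes had counts in some deeper library: Pdgfra, the receptor of oligodendrocyte precursors, was at 26.4 to 133 CPM, the myelin gene Mbp at 9.26 to 200.1 CPM, and Mog, another myelin gene, was at 0 in 13 of 21. Their part in the levels of the Olig genes, Nkx2-2 and Nkx6-2 was not tested.

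**Figure D4:**
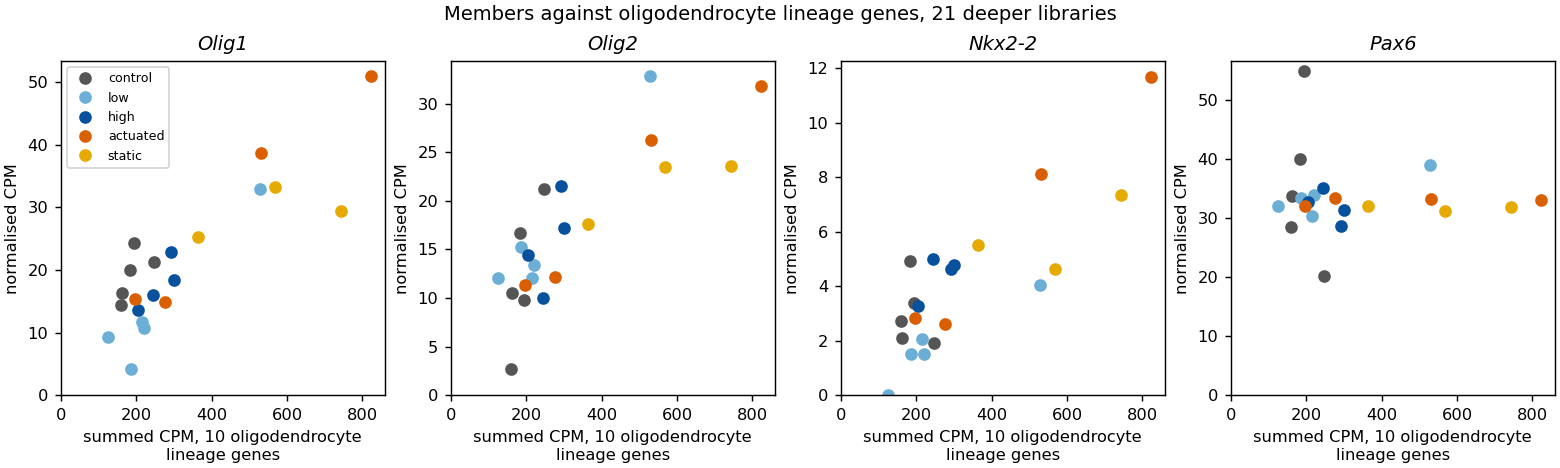
Normalised CPM of Olig1, Olig2, Nkx2-2 and Pax6 against the summed CPM of 10 oligodendrocyte lineage genes in each of the 21 deeper libraries, coloured by group. The first 3 panels climb from left to right (rho 0.75, 0.80 and 0.68), while Pax6 stays level (rho -0.19). The Pax6 points of the arrays spread less than counting error, so their order cannot be read.

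Among 12035 genes of at least 5 CPM on average, those whose levels were most like Olig1 over the 21 libraries included Vash1, a tubulin carboxypeptidase (Spearman rho 0.84), and Gpr17, a receptor of committed oligodendrocyte precursors (0.83). Olig2 was nearest to Acsbg1, an acyl-CoA synthetase (0.84), Kcnj10, a potassium channel of glia (0.82), and Mtss2 (0.82). Within the 14 biochemical libraries these 5 values were 0.68 to 0.79. Pax6 was nearest to the Mediator kinase Cdk19 (0.78), Tmc3 (0.73) and the lipid transporter Abca7 (0.72). Within the 7 array libraries the Tmc3 and Abca7 values were 0.32. The ranks of Pax6 in those libraries rest on differences smaller than counting error.

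The hedgehog pathway was expressed throughout. All 16 of its listed genes passed the filter, and edgeR called 0 in any comparison, with 0 to 3 of them at an unadjusted p under 0.05 in the deeper libraries and 0 or 1 in all. The 3 were for high intensity against control, where 15.95% of all 14730 genes had such a p, so their share was near that of all genes. DESeq2 and limma voom called 0 as well. The receptor Ptch1, itself a target of the signal, was at 132 ± 22.2 CPM (n = 21), the transducer Smo at 57.2 ± 10.8 CPM and the inhibitory receptor Gpr161 at 50.0 ± 8.50 CPM. The target Gli1 was at 3.02 ± 2.52 CPM and the ligand Shh at 5.36 ± 3.46 CPM. In the deeper libraries the median log2 fold change of the 16 was 0.14 for actuated against static, 0.42 for high intensity and 0.11 for low intensity against control, and -0.14 for static against control, where the medians over all genes were within 0.012 of 0. In all libraries the first and last of these medians had the other sign, -0.060 and 0.18.

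Of 22 further spinal progenitor factors, 8 passed the filter in all libraries and 9 in the deeper ones. In either fit edgeR called 0 in any comparison and found 0 at an unadjusted p under 0.05, and DESeq2 and limma voom called 0. Among the more abundant was Prdm8, at 17.5 ± 6.08 CPM. Dorsal factors were near the detection limit: Pax3 was at 0 in 12 of 21 libraries, Pax7 in 11, Atoh1 in 17 and Gsx2 in 20. Of 12 general neural progenitor genes, all fitted, 2 were called, both higher at low intensity than in controls in the deeper libraries. There 0.597% of all fitted genes were called. The intermediate filament Nes was at 371 ± 206 CPM (n = 5) against 138 ± 28.5 CPM (n = 5), or 1.43 on the log2 scale (SE 0.33, edgeR adjusted p 0.0443). Vim, of the same filament family, was at 1681 ± 725 against 834 ± 154 CPM (1.01, SE 0.22, edgeR adjusted p 0.0352). Neither call held in all 26 libraries (edgeR adjusted p 0.582 and 0.991). With 1 deeper library left out at a time, the Nes call was lost in 16 of 21 cases (edgeR adjusted p up to 0.139) and kept without low-intensity replicate 3 or 4, high-intensity replicate 3 or 6, or actuated replicate 2. The Vim call was lost without control replicate 1 or 5 and likewise without replicate 1, 2 or 5 of the low-intensity group (edgeR adjusted p 0.0665 to 0.120). Over all alternatives the adjusted p was 0.0114 to 1 for either gene. The summed CPM of 9 mesenchyme genes, collagens among them, was 271 to 2882 in these low-intensity libraries and 403 to 1007 in controls, and its part in these calls was not tested.

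Of 12 motor neuron genes, 11 were fitted in the deeper libraries and 1 was called there, the choline transporter Slc5a7, for static arrays against control (0.713% of all genes called). It was at 9.91 ± 4.27 CPM on static arrays (n = 3) against 36.3 ± 9.81 CPM in controls (n = 5), or -1.88 on the log2 scale (SE 0.31, edgeR adjusted p 0.00392, and 0.590 in all 26 libraries). The adjusted p without static replicate 4 was 0.0562, and over all alternatives it was 0.00300 to 0.999. Slc5a7 was highest on average in controls: actuated arrays had 14.6 ± 2.24 CPM (n = 4), low intensity 17.2 ± 4.66 (n = 5) and high intensity 26.9 ± 8.03 (n = 4). For low intensity against control it was -1.08 on the log2 scale in the deeper libraries (SE 0.27, edgeR adjusted p 0.0580), and 4 of 59 alternatives called it. The 9 fitted of 10 oligodendrocyte lineage genes had a median log2 fold change of 1.86 on static arrays against control in the deeper libraries, where the median over all genes was -0.0030. Of these 9, 8 had an unadjusted p under 0.05, against 1850 of 14730 genes (12.6%), and edgeR called 0, as did DESeq2 and limma voom. Pdgfra was at 98.6 ± 13.7 against 45.2 ± 16.3 CPM (1.10, SE 0.28, edgeR adjusted p 0.0636).

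Foxa2 is also an endoderm gene, and 10 other endoderm genes summed to 0.851 to 27.6 CPM per deeper library. The highest sum was in high-intensity replicate 1, which also had the most Foxa2 of the deeper libraries (3.67 CPM). On actuated arrays the highest sum, 10.5 CPM, was in replicate 2, which likewise had the most Foxa2 (1.90 CPM). Low-intensity replicate 4 also had the highest sum (14.2 CPM) and the most Foxa2 (1.42 CPM) of its group. Controls and static arrays went the other way. Control replicate 5 had the highest control sum (11.1 CPM) and 0 CPM of Foxa2, and replicate 3 the lowest (0.851 CPM) and the most Foxa2 (1.28 CPM). Among deeper static arrays, replicate 1 had the lowest sum (4.10 CPM) and the most Foxa2 (1.41 CPM). The part of such cells in the Foxa2 counts was not tested. The highest of the 10 were Epcam (2.84 ± 2.44 CPM, at 0 in 2 of 21 libraries), Gata6 (1.99 ± 2.99 CPM, at 0 in 6) and Gata4 (1.08 ± 1.51 CPM, at 0 in 8). Among the lowest, Foxa3 was at 0 in 19 of 21 libraries, Cdx2 in 18 and Afp and Ttr in 17. Pax6 is also a forebrain and eye gene, and 10 other such genes summed to 3.72 to 18.2 CPM in the deeper libraries, Emx2 being the highest at 4.26 ± 3.05 CPM and Otx2 at 0 in 17. Shallow static replicate 3 and high-intensity replicate 5, with the highest Pax6 (77.2 and 64.0 CPM), had sums of 109.8 and 44.3 CPM, and the part of such cells was not tested. The rise was not particular to forebrain genes. Static replicate 3 also exceeded all deeper libraries in the endoderm (53.2 CPM), pluripotency (51.5 CPM) and ventral interneuron (115 CPM) sums. It had counts on 31731 genes, the most of any library. High-intensity replicate 5 exceeded them in the pluripotency (27.1 CPM) and interneuron (106 CPM) sums, but not in the endoderm sum (9.84 CPM). The sum of 6 pluripotency genes was 2.98 to 23.4 CPM, most of it Esrrb (11.01 ± 4.41 CPM), with Pou5f1 at 0 in 16. Interneuron genes of the ventral domains, 11 in the list, summed to 29.4 to 55.0 CPM, and 6 were fitted and 0 called by edgeR, DESeq2 or limma voom, with 0 to 2 at an unadjusted p under 0.05 in the deeper libraries. The 2 were for high intensity against control, where 15.95% of all genes had such a p. En1, of the V1 class, led them at 13.3 ± 4.01 CPM.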

How the data were processed

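RNA sequencing of HBG3 motor neuron spheroids gave 26 libraries in 5 groups. Estimated counts per gene were deposited by the authors, not scaled for depth, as were TPM values, which sum to 1000000 per library. Per the submitters' processing notes, BWA 0.7.12-r1039, bedtools 2.25.0, STAR and Salmon are named, with the builds mm10, hg19 and GRCm39. Which of them made these tables is unknown here. Per the labels' protocols, 4 ng of RNA per sample entered an rRNA-depleted library, except that 8 dilute samples used the full volume. No molecular identifiers are mentioned, so limits cover counting error only.

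Rounded counts of all genes were fitted with edgeR 4.0.16 in R 4.3.3 (filterByExpr, TMM, 1 coefficient per group, quasi-likelihood F-test, Benjamini-Hochberg over all genes, threshold 0.05), and checked on simulated data. No pair of libraries agreed within sampling noise (chi-square per degree of freedom 4.74 to 646 over 325 pairs). DESeq2 1.42.0, limma 3.58.1 (also on log2(TPM + 1) and log2(TPM + 0.1)), other filters and scalings, the deeper libraries, a replicate block and leaving out each library were alternatives. The 10 genes, the lists and the tests were chosen with earlier results of these data known. From each other list, called genes were named, otherwise up to 3 of highest mean CPM. Some genes these rules would name are not reported here. Genes named for contrast, such as Gli1, Shh, Mnx1, Slc18a3, Mog, Emx2 and markers at 0, were chosen after their values were seen. Likeness was Spearman's rho of CPM over the deeper libraries, for the 3 genes of highest mean TPM.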

Additional observations from a re-analysis of the deposited data

Results flagged for a closer look

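Of 48 sets of values (1 gene in 1 group) examined for a library far from the rest of its group, 13 had one, and chance alone marks about 1 in 20. Several rest on the 5 libraries that are not among the deeper ones. Nkx6-2 was at 53.1 CPM in control replicate 4 (18 counts), where the other controls were at 0 to 7.40 CPM. Pax6 was at 77.2 CPM in static replicate 3 (45 counts) against 31.2 to 32.0 CPM in the other static libraries. Pax6 was at 0 CPM in replicate 6 at low intensity, the library with counts on 258 genes, and Nkx2-2 was at 0 CPM in high-intensity replicate 4, against 3.27 to 5.01 CPM in its group. Dbx1 was at 4.92 CPM in high-intensity replicate 5 from 2 counts.

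In the deeper libraries, Olig1 was at 32.9 CPM in low-intensity replicate 1 against at most 11.7 CPM in the rest of the group, and Neurog2 was at 3.41 CPM there (11 counts) against at most 0.833 CPM. Nkx6-2 was at 9.55 CPM in high-intensity replicate 6 against at most 2.82 CPM. Olig2 was at 17.7 CPM in static replicate 1 against 23.4 to 24.0 CPM, and Pax6 at 32.0 CPM in actuated replicate 2 against 33.2 to 33.4 CPM, a small gap in a very narrow group. Neurog2 was at 1.64 CPM in control replicate 6 (5 counts), Foxa2 at 1.42 CPM in low-intensity replicate 4 (2 counts) and Dbx1 at 0.328 CPM in control replicate 6 (1 count), each against lower values of few or 0 counts.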

How the results depend on the processing

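The counts of these genes called stayed at 0 under every alternative run. Of 2060 alternative log2 fold changes, 1776 kept the direction and 284 changed it, none from a called value, and the largest such value as reported was 0.833 in size. Precision was limited: in the deeper libraries the interval of Nkx2-2 for actuated against static array was a ratio of 0.445 to 2.64. Foxa2, Dbx1 and Neurog2, at few counts, were not fitted with the low-count filter. The replicate number did not pair the samples (correlations of deviations from -0.22 to 0.25), and a replicate block gave the values named below, with edgeR adjusted p of 0.164 for Nes, 0.124 for Vim and 0.0493 for Slc5a7 in the deeper libraries. DESeq2 size factors moved the median over all genes by -0.12 (actuated against static), 0.10 (high intensity against control) and 0.14 (static against control), and log2(TPM + 1) by 0.11, 0.32 and 0.65 and, for low intensity against control, 0.24.

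Counts of all genes called moved most. For actuated against static array (0 as reported) they were 1137 with no low-count filter and 34 with DESeq2. For high intensity against control (6 as reported) they were 220 with no low-count filter, 77 with DESeq2, 0 with limma voom, only the compared groups, limma on log2(TPM + 1) and limma on log2(TPM + 0.1), 1 with the replicate block, 68 with the deeper libraries and 2 with the deeper libraries with block, and 0 to 397 with 1 library left out. For low intensity against control (4 as reported) they were 2 with DESeq2 size factors, 153 with no low-count filter, 18 with DESeq2, 0 with limma voom, limma on log2(TPM + 1) and limma on log2(TPM + 0.1), 74 with only the compared groups, 88 with the deeper libraries and 8 with the deeper libraries with block, and 0 to 264 with 1 library left out. For high against low intensity (0 as reported) they were 107 with no low-count filter, 7 with DESeq2 and 11 with only the compared groups, and 0 to 3 with 1 library left out. For static array against control (2 as reported) they were 219 with no low-count filter, 10 with DESeq2, 42 with limma voom, 1 with the replicate block and limma on log2(TPM + 0.1), 105 with the deeper libraries, 4 with limma on log2(TPM + 1) and 36 with the deeper libraries with block, and 0 to 141 with 1 library left out.

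For actuated against static array, the log2 fold changes that changed direction were as follows. Olig1 was 0.033 with no low-count filter, 0.0057 with a filter of 1 CPM in 4 libraries, 0.0012 with only the compared groups and 0.029 with the deeper libraries and -0.39 to 0.25 with 1 library left out. Olig2 was -0.41 to 0.11 with 1 library left out. Nkx2-2 was 0.12 with the deeper libraries and -0.57 to 0.36 with 1 library left out. Nkx6-1 was -0.12 with the deeper libraries with block and -0.072 to 0.54 with 1 library left out. Pax6 was 0.029 with limma voom, 0.059 with the deeper libraries and 0.11 with limma on log2(TPM + 1) and limma on log2(TPM + 0.1) and -0.45 to 0.070 with 1 library left out. Irx3 was 0.033 with the deeper libraries and -1.04 to 0.43 with 1 library left out. For high intensity against control, the log2 fold changes that changed direction were as follows. Nkx6-1 was 0.13 with limma on log2(TPM + 1) and 0.19 with limma on log2(TPM + 0.1) and -0.63 to 0.31 with 1 library left out. Pax6 was 0.085 with DESeq2 size factors, 0.10 with DESeq2, 0.00078 with only the compared groups and 0.010 with mitochondrial and rRNA genes removed and -0.31 to 0.20 with 1 library left out. Irx3 was -0.20 with limma voom, -0.11 with the replicate block and -0.046 with the deeper libraries with block and -0.43 to 0.49 with 1 library left out. For low intensity against control, the log2 fold changes that changed direction were as follows. Nkx2-2 was 0.16 with limma on log2(TPM + 1). Nkx6-1 was 0.049 with DESeq2, 0.073 with limma voom, 0.22 with the replicate block, 0.48 with limma on log2(TPM + 1), 0.76 with limma on log2(TPM + 0.1) and 0.047 with the deeper libraries with block and -0.47 to 0.50 with 1 library left out. Pax6 was 0.063 with DESeq2 size factors, 0.074 with DESeq2, 0.11 with the replicate block and 0.0087 with mitochondrial and rRNA genes removed and -0.22 to 0.21 with 1 library left out. Irx3 was 0.25 with limma on log2(TPM + 1) and 0.37 with limma on log2(TPM + 0.1) and -0.60 to 0.0046 with 1 library left out. For high against low intensity, the log2 fold changes that changed direction were as follows. Olig1 was -0.057 to 0.99 with 1 library left out. Olig2 was 0.15 with limma voom and -0.32 to 0.27 with 1 library left out. Nkx6-1 was -0.54 to 0.15 with 1 library left out. Nkx6-2 was 0.090 with limma voom and 0.24 with the deeper libraries and -0.87 to 0.49 with 1 library left out. Pax6 was 0.022 with DESeq2 size factors, 0.024 with DESeq2, 0.016 with only the compared groups and 0.0013 with mitochondrial and rRNA genes removed and -0.24 to 0.12 with 1 library left out. Irx3 was -0.0092 with limma on log2(TPM + 1) and -0.058 with limma on log2(TPM + 0.1) and -0.13 to 0.88 with 1 library left out. For static array against control, the log2 fold changes that changed direction were as follows. Nkx6-1 was 0.066 with DESeq2 size factors, 0.070 with DESeq2, 0.26 with limma voom, 0.27 with the replicate block, 0.60 with limma on log2(TPM + 1), 1.28 with limma on log2(TPM + 0.1) and 0.25 with the deeper libraries with block and -0.33 to 0.57 with 1 library left out. Nkx6-2 was 0.51 with limma voom, 0.48 with the deeper libraries, 0.75 with limma on log2(TPM + 1), 1.36 with limma on log2(TPM + 0.1) and 1.17 with the deeper libraries with block and -0.80 to 0.67 with 1 library left out. Pax6 was -0.085 with limma voom, -0.17 with the deeper libraries and -0.070 with the deeper libraries with block and -0.33 to 0.54 with 1 library left out. Irx3 was -0.059 with the deeper libraries and -0.24 with the deeper libraries with block and -0.44 to 1.17 with 1 library left out. The cause was not tested.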
